A study of Homo sapiens with 72 samples.

Results

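LIN28A, LIN28B and 8 further genes of the oncofetal let-7 network, HMGA1, HMGA2, IGF2BP1, IGF2BP2, IGF2BP3, TRIM71, ARID3B and MYC, were followed through 36 mRNA libraries. The 10 genes were given as a list and looked up by symbol among the 26485 genes of the count tables, where all 10 were found. The libraries came from 2 human cancer cell lines in 9 groups of 4. DU145 is a prostate cancer line without LIN28A, and it was studied as wild type (WT, passages P157 to P160) and as 2 TUT4/7 double mutant clones, mutant 1 (passages P9 to P12) and mutant 2 (passages P8 to P11). Each of these 3 was also made to overexpress LIN28A from a lentiviral cDNA behind the CMV promoter, with puromycin selection (LIN28A-OE, passages P1 to P4). IGROV1 is an ovarian cancer line with LIN28A of its own, studied as WT (passages P6 to P9), mutant 1 (passages P2 to P5) and mutant 2 (passages P3 to P6). In every mutant, exon 12 of TUT4 and exon 14 of TUT7 had been cut by CRISPR. Each mutant was taken as 1 clone of its line, by the mutant 1 and mutant 2 wording of the labels. The clone suffixes in some sample titles change within a group, so values per clone rest on that wording. The 4 replicates of a group are successive passages of the same cells, so the p-values measure the spread between passages. No line with an empty vector was analysed here, so LIN28A cannot be told apart from transduction and selection. Clone and TUT4/7 genotype likewise cannot be told apart, nor can passage number and genotype in LIN28A-negative DU145 and in IGROV1 mutant 1. Passage number cannot be told apart from LIN28A overexpression in DU145 either. In each of these cases the passage ranges do not overlap, and IGROV1 mutant 2 shares only P6 with its WT. In the LIN28A-OE lines WT and mutants have the same passage numbers.

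LIN28A and LIN28B are RNA-binding proteins of early embryos and germ cells that bind the loop of let-7 precursors and block their maturation. TUT4 and TUT7 are terminal uridylyltransferases, which LIN28A can recruit to add an oligouridine tail to the precursor and mark it for decay by the nuclease DIS3L2, while without LIN28A they add single uridines to RNA 3′ ends. Mature let-7 in turn represses mRNAs with matching sites, among them LIN28 itself, the HMGA chromatin proteins, the IGF2BP family of mRNA-binding proteins, TRIM71, ARID3B and MYC. Many of these genes are expressed in the fetus, silenced in adult tissue and expressed again in tumors. The comparisons asked how the members differ with TUT4/7 genotype, with LIN28A and between the lines.

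The 9 let-7 guide arms measured in the small RNA libraries are shown because their shared seed is what ties the members together. The mature sequences are from RefSeq (GRCh38.p14), 5′ to 3′, with the seed, bases 2 to 8, in capitals.
let-7a-5p: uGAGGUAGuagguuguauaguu
let-7b-5p: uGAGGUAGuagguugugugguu
let-7c-5p: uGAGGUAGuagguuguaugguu
let-7d-5p: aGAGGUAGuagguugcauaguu
let-7e-5p: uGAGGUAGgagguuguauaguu
let-7f-5p: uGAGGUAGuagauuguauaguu
let-7g-5p: uGAGGUAGuaguuuguacaguu
let-7i-5p: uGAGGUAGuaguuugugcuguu
miR-98-5p: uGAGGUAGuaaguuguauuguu
All 9 are 22 bases long and have the seed GAGGUAG, so they form 1 seed group. Several differ from each other by a single base, and reads can be shared between them.

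Seed matches were counted in the 3′ UTR of the MANE Select transcript of each gene (GENCODE v44, hg38) as 8mer sites (CTACCTCA), as 7mer-m8 sites (CTACCTC without the final A) or as 7mer-A1 sites (TACCTCA without the leading C), on the transcript strand. Every one of the 10 members held at least 1 such site, against 15.96% of 18780 MANE 3′ UTRs, and 7 of them held an 8mer, against 3.8%. The members are known as let-7 targets, so this describes the list and tests nothing. TRIM71 had the most sites, 8 in all with 4 8mers, followed by HMGA2 with 7 and by LIN28B, IGF2BP1 and ARID3B with 5 each. IGF2BP2 had 3, and LIN28A, HMGA1, IGF2BP3 and MYC had 1 each. One site of each member that the results turn on is given as the hg38 sense sequence of the transcript, with the site in capitals.
LIN28A 8mer, chr1:26427352-26427381 (+): agcctattgaaCTACCTCAtttttgccaat
HMGA2 8mer, chr12:65963302-65963331 (+): acgttcgatttCTACCTCAgcagcagttgg
HMGA1 7mer-m8, chr6:34245833-34245861 (+): ctgttcacaaaCTACCTCtggacagttgt
IGF2BP1 8mer, chr17:49051065-49051094 (+): tgcgaagtaaaCTACCTCAaggtatgaagt
IGF2BP2 8mer, chr3:185644209-185644238 (-): cacagaagaagCTACCTCAggtgtttttac
IGF2BP3 8mer, chr7:23311784-23311813 (-): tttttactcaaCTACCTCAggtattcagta
ARID3B 7mer-A1, chr15:74595831-74595859 (+): tgcacagaattTACCTCAtctcacagagc
A match of these letters is a description and not evidence of binding. The LIN28A cDNA overexpressed in DU145 lacks the 3′ UTR, so its transcript does not hold the LIN28A site.

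The loop that LIN28 recognises is shown for the same reason. The tetranucleotide GGAG, the motif bound by the zinc knuckles of LIN28, occurred between the mature arms in 8 of the 11 let-7 family hairpins whose loop could be read (72.73%) and in 52 of 728 other hairpins (7.14%). The hairpin of let-7f-2 was not analysed here. For let-7g and let-7i the 30 loop bases that end with the motif are written, with the motif in capitals, and for let-7b and miR-98, where it was not found, the last 30 bases of the loop. The sequences are from RefSeq (GRCh38.p14).
let-7g loop: gagggucuaugauaccacccgguacaGGAG
let-7i loop: ggucggguugugacauugcccgcuguGGAG
let-7b loop: agggcagugauguugccccucggaagauaa
miR-98 loop: uagggauauuaggccccaauuagaagauaa
The hairpin of let-7a-3 also lacked the motif.

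The mRNA libraries held 7195437 to 25054688 reads on genes, and the small RNA libraries 5703653 to 13959627 reads on mature miRNAs. Levels are in counts per 1000000 reads on genes (CPM) and are not corrected for gene length, so they are compared between groups and not between genes. All 5 epithelial markers were at 1 CPM or more in every DU145 library, whereas the prostate markers KLK3 and HOXB13 stayed at or below 0.118 CPM and FOLH1 at 0. In IGROV1 2 of the 5 epithelial markers, KRT18 and KRT19, were at 1 CPM or more in every library, while EPCAM ranged from 0 to 85.1, CDH1 from 0.0572 to 5.46 and KRT8 from 0.908 to 228 CPM between libraries. IGROV1 expressed the Müllerian genes PAX8 (427 to 854 CPM), SOX17 and MECOM, but WT1 did not exceed 1.51 CPM, MUC16 2.79 CPM and EMX2 0.0518 CPM. Of the same list, MUC16 was at 1.95 to 173 CPM and MECOM at 0.796 to 22.3 CPM in DU145, where PAX8 did not exceed 2.92 CPM. Marker lists of blood, endothelial and fibroblast cells summed to at most 87.9, 11.1 and 20.2 CPM in DU145 and 31.3, 109 and 25.5 CPM in IGROV1. PTPRC, CD3E, DCN and LUM were below 1 CPM throughout, but other genes of these lists were expressed. CD68 was at 18.7 to 87.9 CPM in DU145 and 9.18 to 31.2 CPM in IGROV1, and COL1A1 at 4.05 to 19.6 and 6.86 to 25.1 CPM. In IGROV1 CDH5 was at 9.95 to 94.9 CPM and VWF at 4.92 to 17.6 CPM, against at most 9.39 and 1.16 CPM in DU145. PECAM1 and COL1A2 did not exceed 3.63 and 1.69 CPM in either line. In 3 mRNA libraries the genes deviated most from the group mean, with an SD of the log2 difference of 0.696 in replicate 4 of IGROV1 mutant 1, 0.589 in replicate 1 of LIN28A-OE WT and 0.529 in replicate 4 of IGROV1 mutant 2, against at most 0.388 elsewhere. In bulk RNA, fewer expressing cells and less RNA per cell cannot be told apart.

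The transcripts of both targeted genes, TUT4 (ZCCHC11 in the tables) and TUT7 (ZCCHC6), were lower in the mutants and were still detected in each. TUT4 was at 56.7 ± 10.9 CPM in DU145 WT (SD, n = 4), 12.02 ± 4.82 in mutant 1 and 41.7 ± 9.91 in mutant 2. In the LIN28A-OE lines it was at 66.1 ± 11.1, 19.8 ± 3.83 and 60.9 ± 2.84 CPM. Mutant 2 overlapped its WT both there and in LIN28A-negative DU145. In IGROV1 it was at 78.0 ± 6.10, 26.6 ± 10.8 and 27.1 ± 6.94 CPM. The mean level of TUT7 was below WT in both clones of every background, for example 43.2 ± 9.43, 14.2 ± 5.94 and 23.9 ± 6.07 CPM in DU145. Against WT, the mean of both clones was lower by log2 differences of -1.39, -1.02 and -1.52 for TUT4 and -1.29, -1.20 and -1.15 for TUT7 in DU145, LIN28A-OE DU145 and IGROV1, with adjusted p at most 0.00018.

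LIN28A was at or near 0 in LIN28A-negative DU145, with 0, 0, 0.460 and 0 CPM in WT, at most 0.185 in mutant 1 and at most 0.320 in mutant 2. In the LIN28A-OE lines it was at 71.2, 67.6, 74.7 and 64.8 CPM in WT, 406, 325, 405 and 380 CPM in mutant 1, and 229, 320, 242 and 256 CPM in mutant 2. In IGROV1 it was at 176, 250, 240 and 240 CPM in WT, 158.996, 237, 197 and 215 CPM in mutant 1, and 255, 234, 250 and 325 CPM in mutant 2. Thus the labels and the LIN28A level went together in all 36 libraries, and the overexpressing WT line stayed below every overexpressing mutant library. In CPM the overexpressing mutants reached or passed the range of IGROV1, and the overexpressing WT line lay below it. The lentiviral cDNA lacks the 3′ UTR, which has 3270 bases in the endogenous transcript. CPM therefore does not rank the LIN28A of these lines against that of IGROV1. The overexpressed LIN28A was higher in the mutants than in WT by a log2 fold change of 2.09 ± 0.18 (SE; adjusted p = 5.9e-11), and in both clones (2.40 in mutant 1, 1.78 in mutant 2). Within the LIN28A-OE lines, LIN28A level and TUT4/7 genotype therefore cannot be told apart. In IGROV1, LIN28A did not pass the test between mutants and WT (log2 fold change 0.06, from -0.26 to 0.38 at 2 SE). Whether reads of the lentiviral cDNA and of the endogenous gene were counted alike was not tested.

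LIN28B, the paralog of LIN28A, and TRIM71, a let-7-regulated E3 ligase and RNA-binding protein of stem cells, were close to absent. No library exceeded 0.304 CPM of LIN28B or 0.116 CPM of TRIM71, and no group held more than 5 reads of either. DU145 WT had 0 reads of both, which allows a level of up to 0.0774 CPM over the group for counting error (3 reads). These 2 members did not pass the filter on low counts, so 8 of the 10 were tested. LIN28A passed the filter only through the groups that express it, and the groups were built on its level, so it is left out of the counts below, which are of the other 7.

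**Figure D1:**
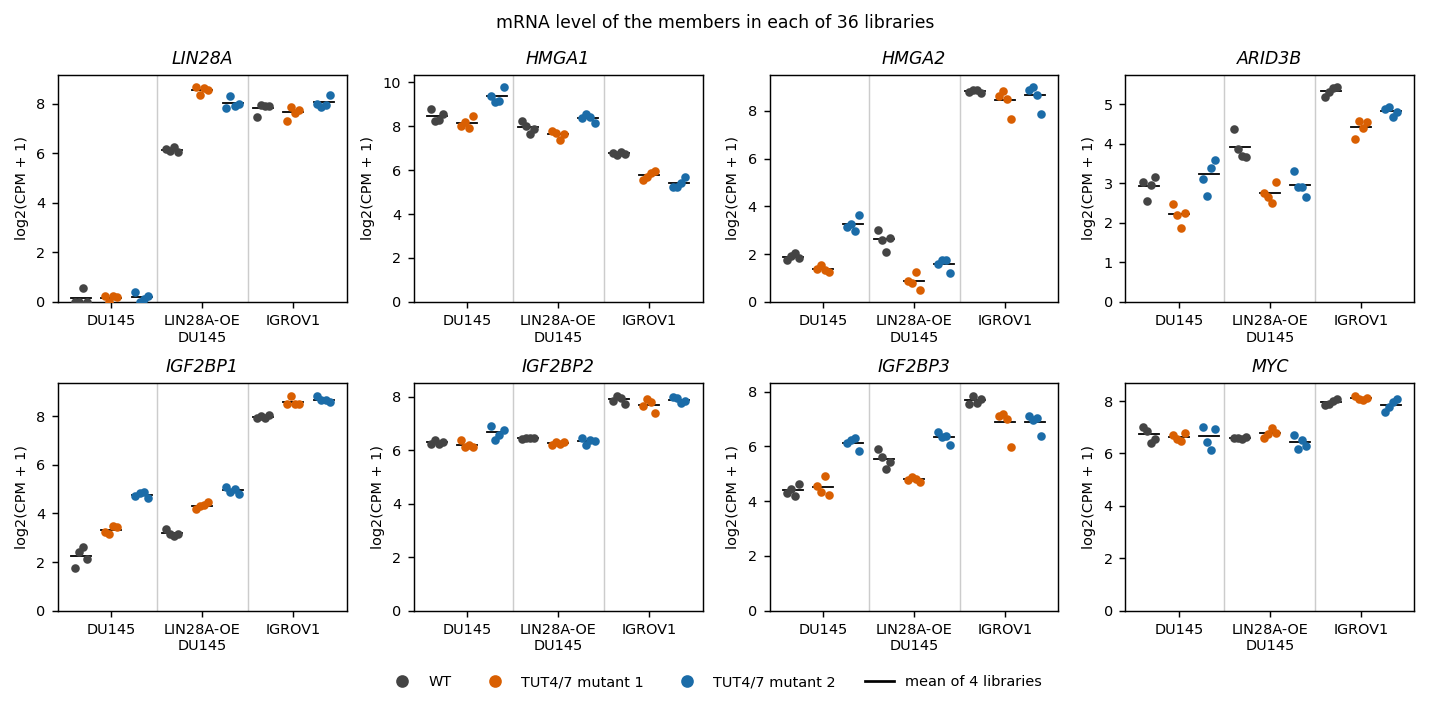
Levels of the 8 members that passed the low-count filter in 36 mRNA libraries, as log2(CPM + 1), with WT, mutant 1 and mutant 2 side by side for DU145, LIN28A-OE DU145 and IGROV1. Each point is 1 library and each bar the mean of 4. LIN28A is near 0 only in the 12 libraries of LIN28A-negative DU145, and HMGA2 and IGF2BP1 are far higher in IGROV1 than in DU145.

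The lines differed in every member counted. Between WT IGROV1 and WT DU145, 7 of 7 members passed the test (60.0% of all 15556 genes did, 28.7% as higher and 31.3% as lower), 6 of them higher in IGROV1. Throughout, adjusted p-values are from edgeR's quasi-likelihood test with Benjamini-Hochberg adjustment over all genes tested, a gene passed at an adjusted p under 0.01, and changes are log2 fold changes ± SE. HMGA2, a chromatin architectural protein of embryonic tissue, was higher in IGROV1 by 7.44 ± 0.28 and IGF2BP1, an mRNA-stabilizing protein of the fetus, by 6.12 ± 0.15. IGF2BP3 was higher by 3.42 ± 0.20, ARID3B by 2.65 ± 0.21, IGF2BP2 by 1.70 ± 0.10 and MYC by 1.32 ± 0.16. HMGA1 was the exception and was lower in IGROV1, by -1.65 ± 0.17. With 1 line of each tissue, LIN28A, tissue and line cannot be told apart.

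Between TUT4/7 mutants and WT, the members that passed differed by background. In LIN28A-negative DU145, 2 of 7 members rose and none fell (18.1% of all genes passed, 7.84% as higher and 10.2% as lower): IGF2BP1 and IGF2BP3. In LIN28A-OE DU145, IGF2BP1 rose and HMGA2 and ARID3B fell, 3 of 7 (17.9% of all genes passed, 7.35% as higher and 10.6% as lower). In IGROV1, IGF2BP1 rose and HMGA1, IGF2BP3 and ARID3B fell, 4 of 7 (33.2% of all genes passed, 15.1% as higher and 18.1% as lower). The median change of the 7 was 0.23, -0.09 and -0.26 in the 3 backgrounds, beside medians of 0.00 over all genes. IGF2BP1 was thus higher in the mutants in all 3 backgrounds, and in both clones of each. The mutant effect in IGROV1 differed from that in DU145 for 3 members (24.2% of all genes passed, 11.3% as higher and 12.8% as lower). The log2 change was lower in IGROV1 for each, HMGA1, IGF2BP3 and IGF2BP1, the last as a smaller rise.

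Calls are also given for 1 clone at a time. With mutant 1 and with mutant 2 alone, 21.8% and 20.5% of all genes passed in DU145, 25.2% and 20.6% in LIN28A-OE DU145 and 31.1% and 30.1% in IGROV1. The LIN28A comparison in the mutants passed for 3.1% and 19% of all genes, its interaction for 0.72% and 0.476%, and the difference between the lines for 23.0% and 26.0%. Without the 3 libraries that stood apart, 26.2%, 27.7% and 36.3% of all genes passed in the mutant comparisons of DU145, LIN28A-OE DU145 and IGROV1, 27.5% and 35.9% in the LIN28A comparisons of WT and mutants, 3.13% in the interaction, 66.4% between the lines and 30.6% in the difference between them.

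LIN28A overexpression was compared with the LIN28A-negative lines in the same way. In WT DU145, IGF2BP1, IGF2BP3 and ARID3B rose and HMGA1, HMGA2, IGF2BP2 and MYC did not pass, so 3 of 7 were higher (9.21% of all genes passed, 6.67% as higher and 2.55% as lower), with a median of 0.94 for the 7 members. In the TUT4/7 mutants, IGF2BP1 rose while HMGA1 and HMGA2 fell, 3 of 7 (23.6% of all genes passed, 13.8% as higher and 9.76% as lower), with a median of -0.06. The difference between the LIN28A effects in mutants and in WT was tested directly as an interaction, and 1 member passed, HMGA2, which was lower (0.489% of all genes passed, 0.18% as higher and 0.309% as lower). The mutant comparison in DU145 and the LIN28A comparison in WT DU145 share the same 4 control libraries, and the LIN28A-OE comparisons share the overexpressing libraries.

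**Figure D2:**
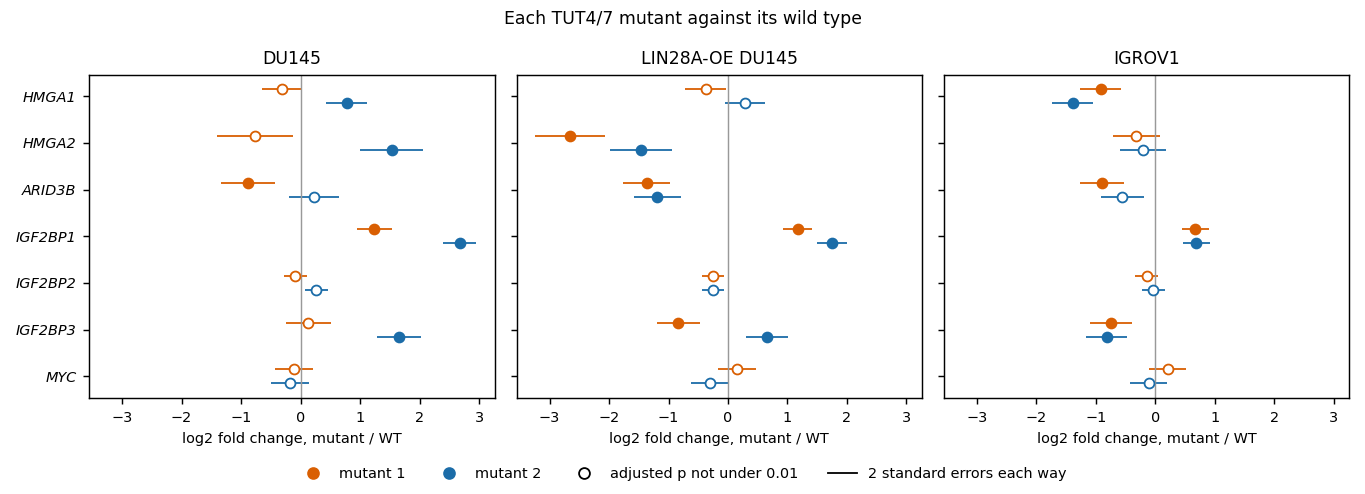
Log2 fold change of the tested members other than LIN28A between each TUT4/7 mutant and WT in LIN28A-negative DU145, LIN28A-OE DU145 and IGROV1, with mutant 1 and mutant 2 drawn apart and 2 SE to either side; filled points passed at an adjusted p under 0.01. IGF2BP1 lies above 0 for both clones in all 3 backgrounds, and HMGA2 lies below 0 for both clones in LIN28A-OE DU145 (-2.65 and -1.46).

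HMGA2 differed both with LIN28A and between the clones of DU145. Without LIN28A it was at 2.35, 2.80, 3.13 and 2.59 CPM in WT, 1.57, 1.88, 1.51 and 1.39 CPM in mutant 1, and 7.69, 8.50, 6.84 and 11.3 CPM in mutant 2. In the LIN28A-OE lines it was at 7.03, 4.94, 3.23 and 5.37 CPM in WT, 0.846, 0.735, 1.36 and 0.397 CPM in mutant 1, and 1.96, 2.39, 2.41 and 1.31 CPM in mutant 2. All 4 overexpressing WT libraries were therefore above all 4 LIN28A-negative WT libraries, while in either mutant every overexpressing library was below every LIN28A-negative one. In WT the nearest libraries with and without LIN28A were at 3.23 CPM (44 reads) and 3.13 CPM (34 reads). In mutant 1 they were at 1.36 CPM (22 reads) and 1.39 CPM (10 reads), and in mutant 2 at 2.41 and 6.84 CPM. The separation in WT and in mutant 1 thus rests on few reads. HMGA2 was higher with LIN28A in WT by 0.94 ± 0.27 (adjusted p = 0.013, past the looser limit of 0.05 only, and 0.0098 with the replicate number as a block) and lower with LIN28A in the mutants by -1.50 ± 0.22 (adjusted p = 6.8e-06). By clone this passed with mutant 2 (-2.06, adjusted p = 7.3e-07) and not with mutant 1 (-0.94, adjusted p = 0.098). The interaction was -2.44 ± 0.35 (adjusted p = 8.6e-05), and by clone it was -1.88 in mutant 1 (adjusted p = 0.018) and -2.998 in mutant 2 (adjusted p = 1.6e-05). Without LIN28A the clones lay on opposite sides of WT, -0.77 ± 0.32 in mutant 1 (adjusted p = 0.064) and 1.53 in mutant 2 (adjusted p = 2.7e-05). With LIN28A both were below WT, by -2.65 and -1.46, and together by -2.06 ± 0.23 (adjusted p = 1.7e-08).

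In IGROV1 HMGA2 was at 440, 473, 463 and 431 CPM in WT, 394, 452, 355 and 202 CPM in mutant 1, and 464, 504, 400 and 234 CPM in mutant 2. The low value of either clone is replicate 4, a library that also stood apart over all genes. The change of -0.26 ± 0.17 did not pass (adjusted p = 0.21), and without the 3 libraries that stood apart it was -0.08 ± 0.11.

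HMGA1, a relative of HMGA2 that is also found in proliferating adult cells, was lower in both mutants of IGROV1. It was at 110, 102, 112 and 105 CPM in WT, 46.0, 51.0, 58.2 and 62.1 CPM in mutant 1, and 36.7, 36.04, 41.9 and 50.5 CPM in mutant 2, so every mutant library was below every WT library. The change was -1.15 ± 0.14 (adjusted p = 4.4e-08). In DU145 it was at 441, 296, 309 and 373 CPM in WT, 256, 295, 242 and 351 CPM in mutant 1, and 653, 549, 559 and 870 CPM in mutant 2. Only mutant 2 passed there (0.77, adjusted p = 0.00064), mutant 1 was at -0.31 (adjusted p = 0.16), and the mean of both was 0.23 ± 0.15 (adjusted p = 0.26). The difference between the mutant effects in the 2 lines was -1.38 ± 0.21 (adjusted p = 3e-06), and it passed with mutant 2 (-2.17) and not with mutant 1 (-0.60, adjusted p = 0.053). HMGA1 has processed pseudogenes in the genome, and how their reads were divided was not tested.

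With LIN28A, HMGA1 was at 304, 258, 201 and 230 CPM in WT, 221, 205, 167 and 200 CPM in mutant 1, and 332, 374, 346 and 280 CPM in mutant 2. It was lower than without LIN28A in the mutants by -0.78 ± 0.12 (adjusted p = 1.3e-05), which passed with mutant 2 (-0.99, adjusted p = 7e-05) and not with mutant 1 (-0.56, adjusted p = 0.036). In WT it was at -0.50 ± 0.17 (adjusted p = 0.036). The WT difference passed without the libraries that stood apart, one of which is replicate 1 of LIN28A-OE WT (-0.69, adjusted p = 0.0016). The interaction did not pass (-0.27, from -0.69 to 0.14 at 2 SE).

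IGF2BP1 was higher in every mutant library than in every WT library of its background. In LIN28A-negative DU145 it was at 2.35, 4.36, 5.15 and 3.30 CPM in WT, 8.49, 7.80, 10.1 and 9.73 CPM in mutant 1, and 25.4, 27.5, 28.7 and 24.0 CPM in mutant 2. With LIN28A it was at 9.35, 7.79, 7.49 and 7.90 CPM in WT, 17.2, 18.5, 19.2 and 21.0 CPM in mutant 1, and 32.8, 28.8, 31.2 and 27.1 CPM in mutant 2. In IGROV1 it was at 242, 256, 246 and 265 CPM in WT, 368, 450, 364 and 359 CPM in mutant 1, and 454, 403, 408 and 383 CPM in mutant 2. The order from WT to mutant 1 to mutant 2 was the same in both DU145 backgrounds, and the clones of IGROV1 overlapped each other. The changes were 1.95 ± 0.13 (adjusted p = 3.2e-13), 1.46 ± 0.11 (adjusted p = 8e-12) and 0.68 ± 0.10 (adjusted p = 1.2e-06). The change in IGROV1 differed from that in DU145 by -1.28 ± 0.16 (adjusted p = 9.6e-08), which passed with mutant 2 (-1.99) and not with mutant 1 (-0.57, adjusted p = 0.016).

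IGF2BP1 also rose with LIN28A in WT DU145, by 1.11 ± 0.14 (adjusted p = 1.4e-06), a difference that did not pass when only these 2 groups were fitted (1.08, adjusted p = 0.020). It rose with LIN28A in the mutants by 0.61 ± 0.09 (adjusted p = 3.6e-06), and in mutant 1 alone by 1.04 (adjusted p = 1.5e-06), while mutant 2 alone was at 0.18 (adjusted p = 0.23). The interaction over both clones did not pass (-0.50, adjusted p = 0.15). For mutant 2 alone it did (-0.93, adjusted p = 0.0048).

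IGF2BP3, the family member best known as an oncofetal marker in carcinoma, differed between the clones of DU145. In LIN28A-negative DU145 it was at 18.8, 21.0, 17.1 and 23.7 CPM in WT, 22.3, 19.2, 29.0 and 17.5 CPM in mutant 1, and 69.1, 74.2, 77.3 and 55.7 CPM in mutant 2. With LIN28A it was at 58.8, 48.2, 34.8 and 42.3 CPM in WT, 26.4, 28.4, 27.0 and 25.1 CPM in mutant 1, and 91.5, 79.5, 82.0 and 65.2 CPM in mutant 2. In IGROV1 it was at 189, 227, 191 and 212 CPM in WT, 138, 146, 127 and 61.6 CPM in mutant 1, and 136, 124, 129 and 82.2 CPM in mutant 2. Mutant 1 overlapped WT in LIN28A-negative DU145 and lay below it with LIN28A, mutant 2 lay above WT in both, and both clones of IGROV1 lay below WT. In LIN28A-negative DU145 the change of 0.89 ± 0.17 (adjusted p = 0.0001) rested on mutant 2 (1.66, adjusted p = 1.6e-08), since mutant 1 did not pass (0.13, adjusted p = 0.64). With LIN28A the clones passed in opposite directions, -0.84 in mutant 1 and 0.65 in mutant 2 (adjusted p = 0.00042 and 0.0048), and the mean of both was -0.09 ± 0.15. In IGROV1 the change was -0.78 ± 0.15 (adjusted p = 5e-05), and -0.62 ± 0.11 without the libraries that stood apart.

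LIN28A in WT DU145 went with a rise of IGF2BP3 of 1.21 ± 0.19 (adjusted p = 1.9e-05), with no overlap of the groups. In the mutants the value was 0.23 ± 0.13 (adjusted p = 0.16). The interaction of -0.98 ± 0.22 missed the limit (adjusted p = 0.017), and it passed with DESeq2 (adjusted p = 0.0016), with the replicate number as a block (adjusted p = 0.0084) and without the libraries that stood apart (-0.83, adjusted p = 0.0017). The mutant effect in IGROV1 was below that in DU145 by -1.68 ± 0.22 (adjusted p = 2.8e-07), and it passed with either clone (-0.87 and -2.48).

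IGF2BP2, the family member most widely expressed in adult tissue, varied least of the 3. Its lowest, median and highest group means were 73.0, 86.7 and 238 CPM, with 207 CPM as the lowest of the IGROV1 groups. No mutant comparison passed: the values were 0.09 ± 0.08 in DU145, -0.25 ± 0.08 in LIN28A-OE DU145 (adjusted p = 0.021) and -0.09 ± 0.08 in IGROV1. With LIN28A it was at 0.18 ± 0.10 in WT and -0.16 ± 0.07 in the mutants (adjusted p = 0.19 and 0.061). Leaving out the libraries that stood apart brought the second past the limit (-0.21, adjusted p = 0.0075), and so did mutant 2 alone (-0.34, adjusted p = 0.0078), while mutant 1 alone was at 0.018.

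**Figure D3:**
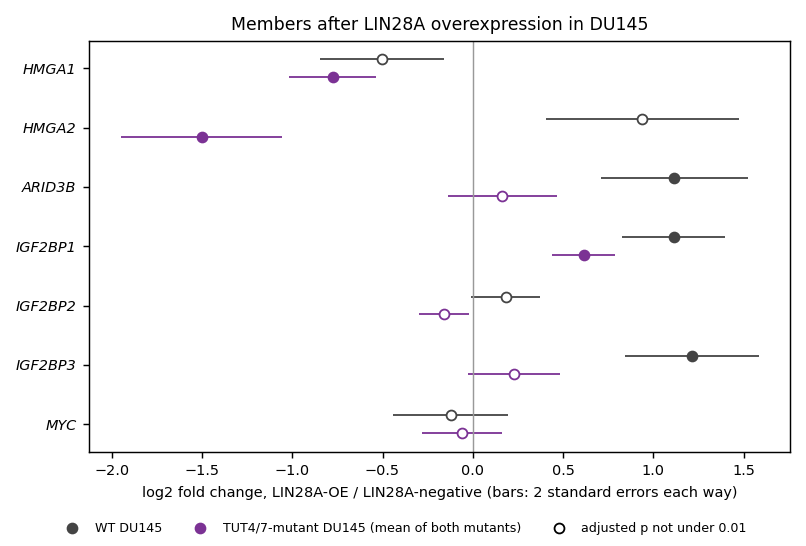
Log2 fold change of each tested member except LIN28A itself between LIN28A-OE and LIN28A-negative DU145, for WT and for the mean of both TUT4/7 mutants, with 2 SE to either side; filled points passed at an adjusted p under 0.01. HMGA2 is at 0.94 in WT and at -1.50 in the mutants, and the difference of -2.44 is the only one of these members to pass the interaction test.

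ARID3B encodes an AT-rich interaction domain protein of development. With LIN28A it was at 19.8, 13.5, 11.9 and 11.7 CPM in WT, 5.80, 5.29, 4.65 and 7.14 CPM in mutant 1, and 8.86, 6.49, 6.55 and 5.26 CPM in mutant 2, with no overlap between WT and mutants. Without LIN28A it was at 7.16, 4.88, 6.71 and 7.89 CPM in WT, 4.52, 3.59, 2.67 and 3.75 CPM in mutant 1, and 7.59, 5.38, 9.39 and 11.1 CPM in mutant 2. In IGROV1 it was at 35.6, 38.9, 41.8 and 42.0 CPM in WT, 16.5, 22.8, 20.03 and 22.3 CPM in mutant 1, and 28.4, 29.3, 24.8 and 26.9 CPM in mutant 2. Thus ARID3B was below WT in both clones wherever LIN28A was present, and in mutant 1 alone where it was not. The mutant changes were -1.28 ± 0.17 with LIN28A (adjusted p = 2.8e-07), -0.73 ± 0.16 in IGROV1 (adjusted p = 0.00027) and -0.33 ± 0.19 in LIN28A-negative DU145 (adjusted p = 0.20), where mutant 1 passed (-0.88, adjusted p = 0.0031) and mutant 2 did not (0.23). In IGROV1 mutant 2 alone missed the limit (-0.55, adjusted p = 0.015).

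LIN28A in WT DU145 went with a rise of ARID3B of 1.12 ± 0.20 (adjusted p = 0.00019), and of 1.08 when only these 2 groups were fitted (adjusted p = 0.027). In the mutants the value was 0.16 ± 0.15 (adjusted p = 0.41). The interaction of -0.95 ± 0.25 passed at 0.05 only (adjusted p = 0.049), and with mutant 2 alone it was -1.42 (adjusted p = 0.0060).

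MYC, the transcription factor of cell growth, did not pass any comparison of genotype or LIN28A. It ranged from 69.2 to 127 CPM over the 24 DU145 libraries and from 190 to 290 CPM over the 12 IGROV1 libraries. The mutant effects were -0.14, -0.08 and 0.05 in DU145, LIN28A-OE DU145 and IGROV1, each with an SE of 0.14, so the interval of 2 SE covered changes from -0.42 to 0.32. The LIN28A effects were -0.12 ± 0.16 in WT and -0.06 ± 0.11 in the mutants.

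The let-7 guide arms of the same lines were measured in 36 small RNA libraries, and 2 columns of the miRNA count table went against their labels. The columns labelled LIN28A-OE WT replicate 2 and LIN28A-OE mutant 1 replicate 2 each resembled most the other's modification table, the per-library file of tailed and untailed miRNA reads (r = 0.968 and 0.982 across 404 miRNAs, which are not independent replicates, against 0.565 with their own). The other 34 resembled their own most, with r of at least 0.961. In the modification tables the 3′ uridine shares of these libraries went with their labels. Levels below are therefore from the modification tables, in reads per 1000000 miRNA reads (RPM), and counts of let-7 arms are given for the count table as labelled, without the 2 columns, and for the modification tables.

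The summed let-7 level was at 76810 ± 4854 RPM in DU145 WT (SD, n = 4), 51246 ± 2693 in mutant 1 and 56105 ± 5543 in mutant 2. With LIN28A it was at 18976 ± 1950 RPM in WT, 43100 ± 13849 in mutant 1 and 45505 ± 5827 in mutant 2. In IGROV1 it was at 24894 ± 1335 RPM in WT, 35351 ± 465 in mutant 1 and 18387 ± 1370 in mutant 2. LIN28A-OE WT and IGROV1 WT thus lay below DU145 WT, no LIN28A-OE mutant library reached down to the LIN28A-OE WT range of 16245 to 20496 RPM, and the clones of IGROV1 lay on opposite sides of their WT. The spread in LIN28A-OE mutant 1 came from libraries at 61648, 29243, 36988 and 44520 RPM. RPM does not include the TMM factors used in the tests, so a difference in RPM can exceed the tested change. With LIN28A, let-7a, the largest arm there, was at 14882 RPM in WT, 21735 in mutant 1 and 19859 in mutant 2. Its tested change between these mutants and WT did not pass.

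**Figure D4:**
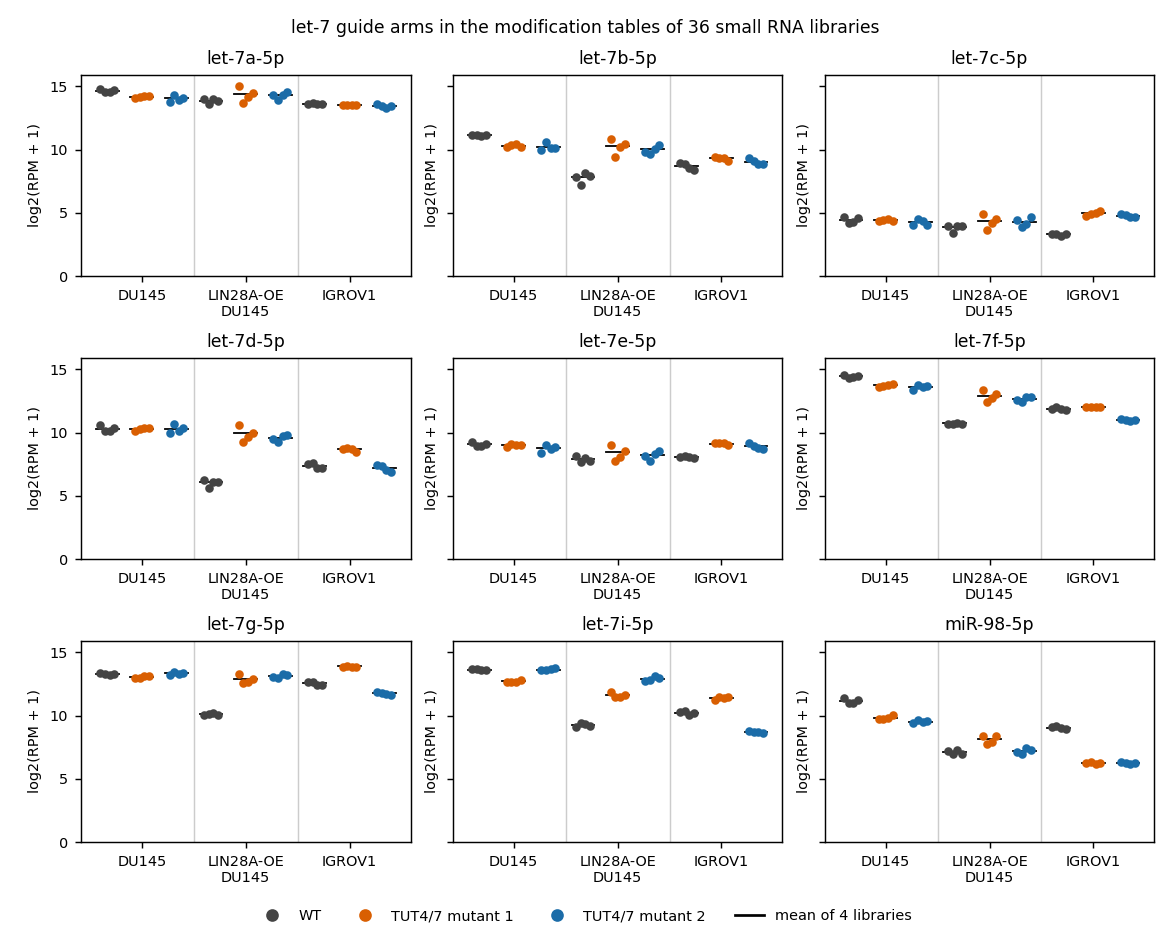
Levels of the 9 let-7 guide arms in 36 small RNA libraries, as log2(RPM + 1) from the modification tables, grouped as in the plot of member levels, with each point 1 library and each bar the mean of 4. In LIN28A-OE DU145 the WT libraries lie below both mutants for let-7d, let-7f, let-7g and let-7i, and in IGROV1 the clones part for let-7g and let-7i among other arms.

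With LIN28A overexpression in WT DU145, all 9 arms were lower in each of the 3 tables (4.82%, 6.59% and 5.71% of all miRNAs passed as lower), with medians of -2.43, -3.26 and -3.33. In the modification tables let-7i changed by -4.27 ± 0.15, let-7d by -4.23 ± 0.13 and miR-98 by -4.01 ± 0.13, whereas let-7a changed by -0.74 ± 0.10 and let-7c by -0.57 ± 0.15 (adjusted p at most 0.0059). In the TUT4/7 mutants 4, 6 and 6 arms were lower with LIN28A (5.18%, 11.1% and 7.21% of all miRNAs passed as lower), with medians of -0.64, -0.63 and -0.67. The interaction was positive for 6, 8 and 7 arms and negative for none (2.17%, 3.65% and 3.44% of all miRNAs passed as higher). It was 3.56 ± 0.14 for let-7d, 3.23 ± 0.16 for let-7i and 2.78 ± 0.13 for let-7g in the modification tables. For miR-98 it was 1.87 ± 0.14. Between LIN28A-OE mutants and WT, miR-98 did not pass in these tables, nor did let-7a, let-7c and let-7e (0.12, 0.17 and 0.06). miR-98 was at 138 ± 15.2 RPM in LIN28A-OE WT, 279 ± 56.6 in mutant 1 and 148 ± 22.7 in mutant 2 (0.22 ± 0.10, adjusted p = 0.073).

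Between mutants and WT, 4, 6 and 6 arms were lower in LIN28A-negative DU145 and none was higher (11.1%, 17.5% and 17.3% of all miRNAs passed as lower). In LIN28A-OE DU145, 2, 6 and 5 arms were higher and none was lower (2.41%, 13.4% and 11.8% passed as higher). In IGROV1, 3, 7 and 6 arms passed in both directions (39.4%, 46.9% and 43.2% of all miRNAs passed). Leaving out the 2 columns that went against their labels thus moved the count in every background, including those without these columns. let-7i was at 1201 ± 94.7 RPM in IGROV1 WT, 2684 ± 174 in mutant 1 and 422 ± 13.4 in mutant 2, while miR-98 was lower in both clones, at 75.6 ± 4.83 and 75.9 ± 2.26 RPM against 532 ± 41.9. WT IGROV1 was below WT DU145 in 8, 9 and 9 arms (31.4%, 32.4% and 28.5% of all miRNAs passed as lower), and the mutant effects of the lines differed in 5, 8 and 8 arms (21.1%, 28.9% and 25.8% passed in either direction).

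The share of let-7 reads with an added 3′ uridine gave a second check of the genotype. On guide arms it was 1.04% in DU145 WT and 0.0725% over both mutants, 0.263% and 0.0599% with LIN28A, and 0.237% and 0.0424% in IGROV1. On passenger arms it was 13.5% and 0.321%, 3.33% and 0.364%, and 9.37% and 3.94%. In these 6 comparisons of 4 WT with 8 mutant libraries, the exact two-sided permutation p was 0.00202 in 5, the smallest that 495 assignments can give here (0.00242 after Benjamini-Hochberg adjustment), and 0.0101 for passenger arms in IGROV1. The mutant libraries are successive passages of both clones, so these p-values do not measure the spread between clones. IGROV1 mutant 2 was the exception among the clones, with passenger arms at 6.96% ± 0.839 uridine against 0.912% ± 0.0924 in mutant 1, and its guide arms were at 0.0235% ± 0.00213. The share with added adenosine on passenger arms, which was not tested, was 2.73% in DU145 WT and 34.3% and 35.97% in mutants 1 and 2. With LIN28A it was 0.874%, 33.7% and 32.6%, and in IGROV1 0.951%, 27.4% and 9.002%. Every mutant mean was thus above its WT, while the WT groups with less uridine than DU145 WT, LIN28A-OE WT and IGROV1 WT, also had less adenosine.

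Set beside each other by group, the members did not move as 1 block with LIN28A or with let-7. From LIN28A-negative to LIN28A-OE WT DU145, with LIN28A going from 0.115 to 69.6 CPM and the let-7 sum from 76810 to 18976 RPM, IGF2BP1, IGF2BP3 and ARID3B rose, and HMGA1, HMGA2, IGF2BP2 and MYC did not pass. This division depends in part on the limit and the fit. HMGA2 was at 0.94 (edgeR adjusted p = 0.013), and IGF2BP1 and ARID3B did not pass when only these groups were fitted. From LIN28A-OE WT to the LIN28A-OE mutants, with more LIN28A and a higher let-7 sum in RPM, HMGA2 and ARID3B fell while IGF2BP1 rose, and IGF2BP3 fell in mutant 1 and rose in mutant 2. From DU145 WT to its mutants, with a lower let-7 sum and LIN28A near 0 in each, IGF2BP1 rose in both clones, HMGA1, HMGA2 and IGF2BP3 rose in mutant 2 alone and ARID3B fell in mutant 1 alone. From IGROV1 WT to its mutants, LIN28A did not pass and let-7 lay above WT in mutant 1 and below it in mutant 2, while IGF2BP1 rose and HMGA1 and IGF2BP3 fell in both clones, and ARID3B fell over both clones together and in mutant 1 alone. With 9 groups from 2 lines no correlation over groups was computed.

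Of 17 partners of LIN28 in let-7 processing (DIS3L2, Dicer and Drosha components, Argonautes and other let-7 cofactors), 5.88%, 17.65% and 35.29% passed between mutants and WT in DU145, LIN28A-OE DU145 and IGROV1, beside 18.1%, 17.9% and 33.2% of all genes. HNRNPA1 fell in the mutants of DU145 (-0.38 ± 0.09). In the mutants of LIN28A-OE DU145, PRKRA rose (0.45 ± 0.09) and DICER1 and HNRNPA1 fell. In those of IGROV1 none rose and 6 fell, the small RNA effectors AGO4 (-0.62), AGO1 (-0.51), AGO3 (-0.50) and AGO2 (-0.33) and the poly(A) polymerase TENT2 (PAPD4 in the tables, -0.57) among them. With LIN28A, DICER1, the nuclease that cuts let-7 precursors and itself a let-7 target, rose in WT DU145 by 1.29 ± 0.21 (adjusted p = 4.2e-05), from 111 ± 20.1 to 268 ± 10.6 CPM (SD, n = 4), and in the mutants by 0.75 ± 0.15 (adjusted p = 0.00022). It was the 1 gene of 17 that passed in WT (5.88%, beside 9.21% of all genes). In the mutants 4 passed (23.53%, beside 23.6%), the Argonaute AGO4 (0.68 ± 0.13) and the RNA-binding protein MSI1 (0.82 ± 0.17) as higher like DICER1 and HNRNPA1 as lower (-0.26 ± 0.08). DICER1 was lower in the LIN28A-OE mutants than in LIN28A-OE WT by -0.75 ± 0.17 (adjusted p = 0.0012). In the interaction, where 0.489% of all genes passed, none of the 17 passed with edgeR or DESeq2, and 2 had an unadjusted p under 0.05. Between the WT lines 9 were higher in IGROV1 and 2 lower (64.71%, beside 60.0% of all genes), with MSI1 (1.31), HNRNPA1 (1.13), DROSHA (-0.79), AGO1 (0.74) and AGO3 (0.65) the most changed. The mutant effects of the lines differed for PRKRA (-0.55) and AGO1 (-0.46), 11.76% of the 17 beside 24.2% of all genes.

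A list of 44 other let-7 targets gave 42 genes that were tested. Between mutants and WT 16.67%, 16.67% and 38.1% of them passed in DU145, LIN28A-OE DU145 and IGROV1, shares near the 18.1%, 17.9% and 33.2% of all genes. With LIN28A 21.43% passed in WT and 35.71% in the mutants, beside 9.21% and 23.6% of all genes. With LIN28A in WT DU145, 9 of them rose and none fell, with a median change of 0.20 against 0.04 over all genes. Besides DICER1 they included BACH1, a heme-regulated repressor (1.19 ± 0.29), the receptors INSR (0.96 ± 0.17) and IGF1R (0.82 ± 0.13), and PBX2, a homeodomain cofactor (0.71 ± 0.12). With LIN28A in the mutants 10 rose, among them RAB11FIP4 (1.03 ± 0.24) and E2F5 (0.89 ± 0.14), and 5 fell, AURKB, CDC25A, IL6, STARD13 and CLP1. Between LIN28A-OE mutants and LIN28A-OE WT none rose and 7 fell, IRS2 (-1.13), GATM (-1.02), BACH1 (-0.84), DICER1 and PBX2 (-0.70) among them. In LIN28A-negative DU145 mutants 2 rose, the cell-cycle genes E2F2 (1.30 ± 0.36) and CDC25A (1.24 ± 0.32), and 5 fell, GATM, IRS2, CDK6, INSR and NAP1L1. In IGROV1 mutants 4 rose, STARD13, CCND1, E2F5 and NAP1L1, and 12 fell, among them the transcription factors PLAGL1 from 55.2 ± 6.67 to 3.49 ± 1.20 and 3.78 ± 0.725 CPM and MYCN from 6.99 ± 1.63 to 0.650 ± 0.181 and 2.35 ± 0.691 CPM. LRIG3 (-4.68), the cyclin CCND2 (-4.19) and THBS1 (-2.21) fell there too. In the interaction of LIN28A with genotype (0.489% of all genes) none of the 42 passed with edgeR or DESeq2, and 8 had an unadjusted p under 0.05. Between the WT lines 17 were higher in IGROV1 and 10 lower (64.29%, beside 60.0% of all genes), and the mutant effects of the lines differed for 13 (30.95%, beside 24.2%). The count between the WT lines includes genes nearly absent from 1 line, such as MYCN (9.67 higher in IGROV1). These can pass the low-count filter through the other line alone, so no conclusion is drawn from that count.

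Of 14 further oncofetal and embryonic genes, SALL4, GPC3, PEG10, POU5F1 and IGF2R passed the filter on low counts. Between mutants and WT 2, 3 and 2 of these 5 passed in DU145, LIN28A-OE DU145 and IGROV1 (40%, 60% and 40%, beside 18.1%, 17.9% and 33.2% of all genes). PEG10, an imprinted placental gene, fell in the mutants of DU145 from 140 ± 18.4 to 59.9 ± 7.94 and 11.5 ± 1.85 CPM (-2.48 ± 0.14) and in those of LIN28A-OE DU145 (-2.16 ± 0.13), and rose in those of IGROV1 (0.60 ± 0.14). It was the 1 gene of the 5 that passed with LIN28A in the mutants (0.49 ± 0.12; 20%, beside 23.6% of all genes). POU5F1, the pluripotency factor OCT4, was at 156 ± 16.4 CPM in IGROV1 WT and at 2.33 ± 0.190 and 4.19 ± 2.58 CPM in its mutants (-5.64 ± 0.24), and it did not exceed 1 CPM on average in any DU145 group. SALL4, a stem cell zinc finger protein, fell in the mutants of DU145 (-0.95 ± 0.25) and of LIN28A-OE DU145 (-0.76 ± 0.22). IGF2R, the clearance receptor of IGF2, rose with LIN28A in WT DU145 (0.60 ± 0.12), where none of the other 4 passed (20%, beside 9.21% of all genes), and fell in the mutants of LIN28A-OE DU145 (-0.55 ± 0.10). Between the WT lines all 5 passed, with SALL4 lower in IGROV1 and the other 4 higher (60.0% of all genes passed). The mutant effects of the lines differed for PEG10 and POU5F1 (40%, beside 24.2%). A gene nearly absent from 1 line, as POU5F1 was from DU145, can pass the low-count filter through the other line alone. The filter can thus fix such counts, and no conclusion is drawn from them. In the interaction of LIN28A with genotype, where 0.489% of all genes passed, none of the 5 passed with edgeR or DESeq2, and 1 had an unadjusted p under 0.05.

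By the correlation of log2(CPM + 1) over the 36 libraries, the gene most like HMGA2 was ANK1 (r = 0.98), closely followed by the member IGF2BP2, whose own nearest gene was HMGA2. IGF2BP1 was most like FOXRED2 (0.98), HMGA1 like MDFI (0.98), MYC like FHL3 (0.96), IGF2BP3 like SLC25A16 and ARID3B like GJA1 (both 0.94). LIN28A, which crosses the lines, had the lowest best value, 0.86 with EIF2AK1. The libraries fall into the 2 lines, so a gene that differs between them can score high.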

How the data were processed

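RNA was sequenced from 9 groups of 4 cultures, as a directional mRNA library and a small RNA library of each. Per the labels and the study's methods, the authors trimmed mRNA reads with Trimmomatic 0.39, removed ribosomal reads with SortMeRNA, aligned to hg38 with HISAT2 2.1.0 and deposited HTSeq counts per gene. The HTSeq strand setting and annotation are not given in the sources used here, so overlapping and antisense genes may share reads. Small RNA reads were trimmed of adapters with cutadapt and of molecular identifiers; the authors deposited 1 miRDeep2 table of counts per mature miRNA for all libraries and 1 Chimira table of counts per modified and unmodified miRNA for each library. No other unit was used.

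Rows that name no gene (21.9% to 30.1% of an mRNA library's reads) were left out. CPM is a count per 1000000 reads on genes. RPM is relative to all reads on mature miRNAs, and 224 mature miRNAs listed under several precursors were entered once. One edgeR 4.0.16 quasi-likelihood fit (R 4.3.3, limma 3.58.1) covered all 36 libraries, with TMM factors, the default low-count filter over the 9 groups (15556 genes and 830 miRNAs kept) and Benjamini-Hochberg adjustment over all of them. The mutant effect is the mean of both clones against WT. The SE of a change was derived from the quasi-likelihood test, as the absolute change divided by the square root of its F statistic. The limit was an adjusted p under 0.01. DESeq2 1.42.0 was an alternative. On data simulated for the DU145 mutant comparison with 15556 genes, the fit recovered 94% of genes changed by a log2 of 1 and 100% of those changed by 2. The simulation gave every gene the same dispersion, changed only genes above a minimum mean count and held no other difference between groups. It checks that the fit works, and the share of changes recovered in the real libraries was not tested.

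The members and lists were chosen with earlier results of these data known. Named are all members, all 9 let-7 guide arms, TUT4 and TUT7, genes of 3 lists, from the up to 5 per list and comparison with the largest change among those past the limit and from counts of 5 or fewer, and the gene most correlated with each member. Of the replicate pairs none agreed within sampling noise (chi-square per degree of freedom of 4.50 or more in mRNA and 23.7 or more in small RNA, 54 pairs each). Figures were drawn with matplotlib 3.10.9. Intervals and floors cover counting error or the spread of passages only. Depth was 7195437 to 25054688 reads on genes, so 3 reads over a group correspond to 0.0409 to 0.0774 CPM.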

Additional observations from a re-analysis of the deposited data

Results flagged for a closer look

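Among 153 groups of 4 libraries tested for a lone value (members in CPM, let-7 arms in RPM from the modification tables), 5 held a value whose gap to the nearest library exceeded Dixon's 95% critical value for 4, 3.268% of them, and chance gives about 1 in 20. LIN28A in IGROV1 WT replicate 1 was at 176 CPM against 240 to 250 in the others. IGF2BP1 in IGROV1 mutant 1 replicate 2 was at 450 CPM against 359 to 368. let-7b-5p in DU145 WT replicate 3 was at 2198 RPM against 2309 to 2331. let-7c-5p in LIN28A-OE WT replicate 2 was at 9.88 RPM against 14.8 in the others, and let-7f-5p in LIN28A-OE WT replicate 3 was at 1775 RPM against 1654 to 1662. Without either of these IGROV1 mRNA libraries, the members called in each comparison stayed called.

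The remaining results differed between groups under the same contrast, each by the interaction test of edgeR. The effect of LIN28A on HMGA2 in the DU145 mutants differed from that in WT by -2.44 (adjusted p = 8.61e-05). The mutant effect in IGROV1 differed from that in DU145 for HMGA1 by -1.38 (adjusted p = 3.03e-06), for IGF2BP1 by -1.28 (adjusted p = 9.64e-08) and for IGF2BP3 by -1.68 (adjusted p = 2.81e-07). In the miRNA count table as labelled, the effect of LIN28A in the mutants lay above that in WT by 0.88 for let-7a-5p (adjusted p = 7.15e-05), 2.33 for let-7b-5p (0.000527), 0.90 for let-7c-5p (0.00222), 1.87 for let-7f-5p (0.00161), 2.17 for let-7i-5p (0.00148) and 1.63 for miR-98-5p (5.04e-06). The mutant effect in IGROV1 differed from that in DU145 by 0.49 for let-7a-5p (adjusted p = 0.00687), 1.56 for let-7b-5p (0.00625), 2.71 for let-7c-5p (3.81e-13), 1.21 for let-7e-5p (1.56e-07) and -1.22 for miR-98-5p (5.2e-05). The LIN28A values include the 2 columns that went against their labels.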

How the results depend on the processing

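All members called as reported stayed called without any 1 library. For the fits without 1 library, the share of all genes or miRNAs that passed is not given here. Whether the counts of this paragraph follow that share was therefore not tested. Leaving out each replicate in turn kept the count of called members other than LIN28A at 2 in DU145 mutants, 3 in LIN28A-OE mutants, 4 in IGROV1 mutants, 3 to 4 with LIN28A in WT, 3 to 4 with LIN28A in mutants, 1 in the LIN28A interaction, 7 between lines and 3 in the line interaction. For let-7 arms in the count table as labelled the ranges were 3 to 4 in DU145 mutants (let-7b stayed called in 1 of 12 fits), 8 to 9 with LIN28A in WT (let-7d in 5 of 8), 0 to 5 in LIN28A-OE mutants (0 without LIN28A-OE WT replicate 1, 3 or 4, and 5 without either of the 2 columns that went against their labels), 6 to 8 in the LIN28A interaction and 3 to 5 in the line interaction (3 without DU145 WT replicate 3 or 4 or IGROV1 WT replicate 2 or 3).

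Directions turned mostly where 1 clone replaced the mean of both, in each case for a member that had not passed with both. With mutant 1 alone they were, in DU145, -0.31 for HMGA1, -0.77 for HMGA2 and -0.087 for IGF2BP2, 0.15 for MYC in LIN28A-OE DU145, -0.10 for LIN28A in IGROV1, 0.018 for IGF2BP2 and 0.13 for MYC with LIN28A in mutants, and 0.45 for HMGA2 in the difference between the mutant effects of the lines. With mutant 2 alone they were 0.23 for ARID3B in DU145, 0.29 for HMGA1 and 0.65 for IGF2BP3 in LIN28A-OE DU145, -0.11 for MYC in IGROV1, -0.30 for ARID3B with LIN28A in mutants and -0.13 for MYC in the LIN28A interaction. Without the 3 libraries that stood apart, a setting chosen after seeing the data, HMGA1 (0.097) and IGF2BP3 (0.076) turned in LIN28A-OE mutants and LIN28A (-0.039) and MYC (-0.025) in IGROV1. Without LIN28A-OE WT replicate 1 HMGA1 was 0.066 and IGF2BP3 0.046 (-0.205 without replicate 3), without IGROV1 WT replicate 1 LIN28A was -0.046 (0.113 without mutant 1 replicate 1), without IGROV1 mutant 2 replicate 4 MYC was -0.015, and without DU145 WT replicate 1 the MYC interaction was -0.056 (0.162 without replicate 3). The cause was not tested.

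The share of all genes or miRNAs that passed under the same setting stands in parentheses. Called members numbered 4 in DU145 with mutant 2 alone (20.5%), 5 with LIN28A in WT at an adjusted p under 0.05 (18.5%) and 1 when only those groups were fitted (1.49%), 1 with LIN28A in mutants with mutant 1 alone (3.1%) and 1 in the line interaction with mutant 1 alone (23.0%). In the LIN28A interaction they numbered 3 at an adjusted p under 0.05 (1.43%), 2 with DESeq2 (1.1%), with the replicate block (0.63%), in the fit of its own groups (0.412%) and without the 3 libraries (3.13%), 3 with mutant 2 alone (0.476%) and 0 with mutant 1 alone (0.72%; edgeR, 2 at an unadjusted p under 0.05). Called let-7 arms numbered 1 in DU145 with mutant 1 alone (24.1%). In LIN28A-OE mutants they numbered 5 at an adjusted p under 0.05 (11%) and with no low-count filter (1.64%), 1 with RLE factors (4.58%), with the replicate block (3.13%) and with mutant 2 alone (12.3%), 0 with mutant 1 alone (0%; edgeR, 9 at an unadjusted p under 0.05) and in the fit of its own groups (0.147%; 4 at an unadjusted p under 0.05), 6 without those 2 columns (28.2%) and 5 in the modification tables (31.4%). In IGROV1 they numbered 5 with mutant 1 alone (33.1%), 7 in the fit of its own groups (58.0%) and without those 2 columns (46.9%), and 6 in the modification tables (43.2%). With LIN28A in mutants 2 passed with mutant 2 alone (6.39%), and in the LIN28A interaction 3 with mutant 1 alone (3.01%) and in the fit of its own groups (2.05%). In the line interaction 3 passed with RLE factors (20%) and with mutant 2 alone (20.7%), and 8 in the fit of its own groups (34.2%), without those 2 columns (28.9%) and in the modification tables (25.8%).

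Deviations of same-numbered libraries were correlated at over 0.1 in 19 of 40 pairs of mRNA libraries and 11 of 40 of small RNA. All 4 pairs did so in 1 of 10 pairs of groups in each assay, LIN28A-OE WT with mutant 2 in mRNA (0.319 to 0.716) and IGROV1 WT with mutant 1 in small RNA (0.127 to 0.348). LIN28A-OE WT did so in 3 of 4 in mRNA both with mutant 1 and with LIN28A-negative WT. The numbers, which are passages, may thus pair some of the LIN28A-OE libraries, and the block is given as an alternative. With the replicate block the called members numbered 2, 3, 4, 4, 3, 2, 7 and 3 in the order of comparisons given first above, while 20.4%, 19.6%, 35.8%, 11%, 27.3%, 0.63%, 61.9% and 25.9% of all genes passed. HMGA2, LIN28B and TRIM71 were limited by depth in DU145, since they rest on few reads a library.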
